A study of Mus musculus with 5 samples.

Results

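10 genes of cytosolic nucleic acid sensing were examined in RNA sequencing of mouse Lewis lung carcinoma (LLC), a transplantable lung tumor line. Members were the rows whose symbol was CGAS, TMEM173, TBK1, IKBKE, IRF3, MAVS, TREX1, ZBP1, AIM2 or IFNB1, as the deposited tables spell them. Of these 10 genes, 9 had a value in all 5 libraries, among 13979 symbols with a value in all 5. IFNB1 was listed in 1 of the 5 deposited tables, with 2 of the 5 libraries.

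Each group had 1 library, so no value has a replicate error and no difference was tested. Control received no active agent named in the labels. BMN is BMN673, an inhibitor of the DNA repair enzyme PARP, given alone. PAZA is a polymer carrier to which 5-azacytidine, an inhibitor of DNA methyltransferases, was conjugated, given without BMN. BMN/PAZA low dose and BMN/PAZA high dose were BMN carried by PAZA at a lower and a higher dose. According to the sample labels these were cultured LLC cells, whereas the study's methods describe tumor tissue taken from immunocompetent mice after the last treatment. Markers of other cell types were present in all 5 libraries. The summed level of 6 leukocyte markers ranged from 144 to 221 scaled FPKM, that of 8 macrophage markers from 329 to 483, and that of 6 fibroblast markers from 313 to 817, with none of these markers listed at 0. Each value below is therefore an average over a mixture of cells, in which fewer cells of a type and less RNA per cell cannot be told apart.

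Cytosolic DNA is bound by cGAS, which makes the messenger cGAMP. This messenger activates STING (TMEM173) on intracellular membranes, and STING gathers the kinase TBK1, which phosphorylates IRF3 so that IRF3 enters the nucleus and helps switch on IFNB1, the gene of interferon beta. MAVS is the mitochondrial adaptor on which RNA sensors such as RIG-I converge, and it feeds into the same kinases and the same factor. In tumors this route is known for linking DNA damage to the recruitment of immune cells, and much of it is controlled through protein modification, which mRNA levels do not show.

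The promoters of 4 members are shown because the study used an inhibitor of DNA methylation and because IFNB1 is the gene at the end of the route. The sequences are the 250 bases before the RefSeq start, 5′ to 3′ on the strand of the gene, on GRCm38.p6. In the IFNB1 window the capitals mark the 2 motifs searched on both strands. These were AANNGAAA, a short form of the element that IRF factors bind, and GGGAAATTCC, an NF-kB element, and no match overlapped another. In the other 3 windows the capitals mark CpG dinucleotides, the sites of DNA methylation.
IFNB1 (chr4:88522795-88523044, minus strand): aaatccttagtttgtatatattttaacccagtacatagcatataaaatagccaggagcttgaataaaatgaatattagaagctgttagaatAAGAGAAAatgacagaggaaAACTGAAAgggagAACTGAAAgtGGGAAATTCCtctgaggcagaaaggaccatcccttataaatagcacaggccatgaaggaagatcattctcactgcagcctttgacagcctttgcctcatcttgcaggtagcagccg
IRF3 (chr7:44997398-44997647, plus strand): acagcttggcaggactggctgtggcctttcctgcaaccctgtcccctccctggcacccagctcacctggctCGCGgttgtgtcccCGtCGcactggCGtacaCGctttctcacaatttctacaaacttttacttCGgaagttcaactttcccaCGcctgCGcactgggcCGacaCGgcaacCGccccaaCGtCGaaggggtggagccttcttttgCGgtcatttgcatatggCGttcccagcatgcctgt
TBK1 (chr10:121586795-121587044, minus strand): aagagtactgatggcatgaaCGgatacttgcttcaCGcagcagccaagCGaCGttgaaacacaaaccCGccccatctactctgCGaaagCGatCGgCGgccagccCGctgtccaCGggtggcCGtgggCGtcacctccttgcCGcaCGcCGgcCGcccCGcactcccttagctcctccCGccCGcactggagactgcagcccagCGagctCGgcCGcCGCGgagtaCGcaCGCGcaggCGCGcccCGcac
AIM2 (chr1:173420354-173420603, plus strand): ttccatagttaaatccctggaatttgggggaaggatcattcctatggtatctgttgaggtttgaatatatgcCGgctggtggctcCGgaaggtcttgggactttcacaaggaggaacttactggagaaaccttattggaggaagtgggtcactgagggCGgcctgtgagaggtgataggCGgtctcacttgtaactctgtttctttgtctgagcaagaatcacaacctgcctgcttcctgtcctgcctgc

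The IFNB1 window held 3 matches to AANNGAAA and 1 match to GGGAAATTCC. At least 1 match was present in 21.3% and 0.0974%, respectively, of 32851 RefSeq windows of the same length. Among the windows of the other members found in the RefSeq table (CGAS, TBK1, IKBKE, IRF3, MAVS, AIM2 and a pair for TREX1), that of IKBKE held 1 match to AANNGAAA and the rest held none of either motif. The window of TBK1 held 31 CpG, that of IRF3 16, that of MAVS 15 and that of CGAS 9. The windows of TREX1 held 4 and 7, those of AIM2 and IKBKE 4 each, and that of IFNB1 held 1, against a median of 6 over all windows with quartiles of 2 and 16. DNA methylation was not measured in these libraries. A match describes the letters of the window and is not evidence of binding.

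On GRCm38, in the GENCODE annotation, Cgas lies on chromosome 9 from 78430526 to 78443237, Tbk1 on chromosome 10 from 121546455 to 121586787 and Mavs on chromosome 2 from 131234063 to 131248025. Zbp1 lies on chromosome 2 from 173206612 to 173218923 and Ifnb1 on chromosome 4 from 88522025 to 88522774, and neither overlaps another annotated gene. Irf3, from 44997648 to 45002848 on chromosome 7, overlaps Bcl2l12 on the opposite strand. Trex1, from 109057933 to 109059734 on chromosome 9, overlaps Atrip on the same strand. Aim2, from 173350879 to 173466040 on chromosome 1, overlaps Cadm3 on the opposite strand, and Ikbke, from 131254343 to 131279606 on chromosome 1, overlaps a pair of antisense transcripts. Cgas overlaps the pseudogene Gm8093 on the opposite strand. Whether strand was used in quantification is not given in the sources used here, so the values of these 5 genes may include reads from their partners. BCL2L12, the partner of IRF3, stood at 2.51 scaled FPKM in Control, 2.17 in PAZA, 5.49 in BMN, 3.16 in the low dose and 3.10 in the high dose. How reads in the overlaps were assigned was not tested. ATRIP, the partner of TREX1, ranged from 2.57 to 3.82 scaled FPKM, and CADM3, the partner of AIM2, from 0.362 to 1.05.

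The deposited tables did not give the same relative values for most of these genes, and every difference below has to be read against that. All but the Control library appear in more than 1 table, and the ratio of a library's values between tables was nearly always a constant. For BMN and for the high dose the members' values were identical between tables. For the low dose, the table shared with BMN stood at 0.307 times the table shared with the high dose. After that constant, TBK1, IKBKE, IRF3, MAVS, TREX1 and AIM2 were each listed in the table with BMN at 1.75 times the value expected from the other table and ZBP1 at 3.5 times, while CGAS and TMEM173 kept to the constant. Thus 7 of 9 members departed from the constant by more than 0.5%, against 2.35% of 15449 genes.

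In the table of PAZA and the low dose, the values of 6 members were exchanged between the columns. The value listed as PAZA for TBK1, IKBKE, IRF3, MAVS, TREX1 and AIM2 equalled the low dose value from elsewhere, and the value listed as low dose equalled the PAZA value from elsewhere, both within 0.5% after the constants. Only 24 of 13128 genes (0.183%) showed this exchange, of which 6 were members and 10 others belonged to the 109 pathway genes described further on. MAVS shows it most plainly. It was listed there at 3.84 FPKM in PAZA and 9.43 FPKM in the low dose, whereas the other tables, brought to the same scale, gave 9.43 FPKM for PAZA and 3.84 FPKM for the low dose. ZBP1 was not exchanged, but its low dose value there was 1.5 times that expected from the table with the high dose. For the 6 exchanged members, the PAZA values of this table used below repeat the low dose values from elsewhere. Its low dose values likewise repeat the PAZA values, so they add no separate reading of the library they are listed under.

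**Figure D1:**
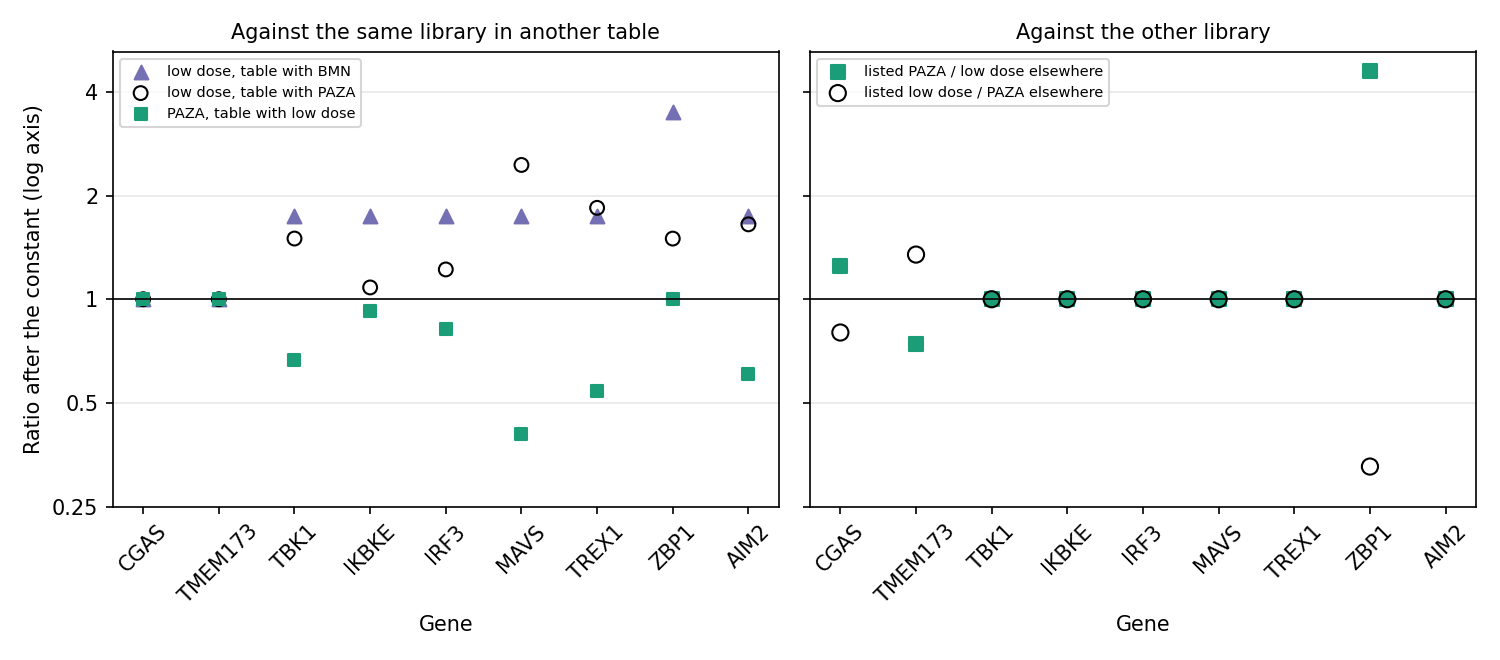
Ratio of each gene's FPKM in 1 table to its FPKM in another after the constant between the tables, on a log axis, for 9 genes. Left, each library against the same library elsewhere (low dose against the table with the high dose, PAZA against the table with Control), where CGAS and TMEM173 sit at 1 throughout and triangles for 6 genes sit at 1.75. Right, the table of PAZA and low dose against the other library, where 6 genes sit at 1 in both directions.

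The PAZA column used for levels had a further feature. Of its 20236 values, 27 had more than 6 significant digits, and all 27 had at most 6 after division by 1.5. Those 27 included 6 members (IKBKE, IRF3, MAVS, TREX1, ZBP1 and AIM2) and 13 pathway genes. The PAZA values of CGAS and TMEM173 had 6 digits and were not among them. That of TBK1 had 6 digits before and after the division, so its case could not be told. The Control and high dose columns held no value of over 6 digits. The BMN column held 29, none of them a member, and all 29 had at most 6 after division by 2. In the low dose column 13774 of 16155 values had over 6, all 9 members among them. Of these, 13772 had at most 6 after division by 3.6. The PAZA values are given as deposited, with the divided value beside them where it matters. The cause of these departures was not tested.

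Levels are given as scaled FPKM, which is FPKM (fragments counted per length of transcript and per size of the library) with each library brought to a sum of 1e6 over the shared symbols. PAZA and Control, BMN and the high dose, and the low dose came from 3 tables on different scales, so levels across them rest on that scaling. As deposited, AIM2 was the highest of the 9 in every library and TBK1 the next, while CGAS was the lowest in every library. With the divided PAZA values, AIM2 (119.5 scaled FPKM) lay below TBK1 (124.9) and IKBKE (2.91) below CGAS (4.34) in PAZA. AIM2 lay above 92.2% to 96.0% of all genes and CGAS above 32.8% to 40.2%. The highest level over the lowest ranged from 1.58-fold for TMEM173 to 4.39-fold for ZBP1.

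**Figure D2:**
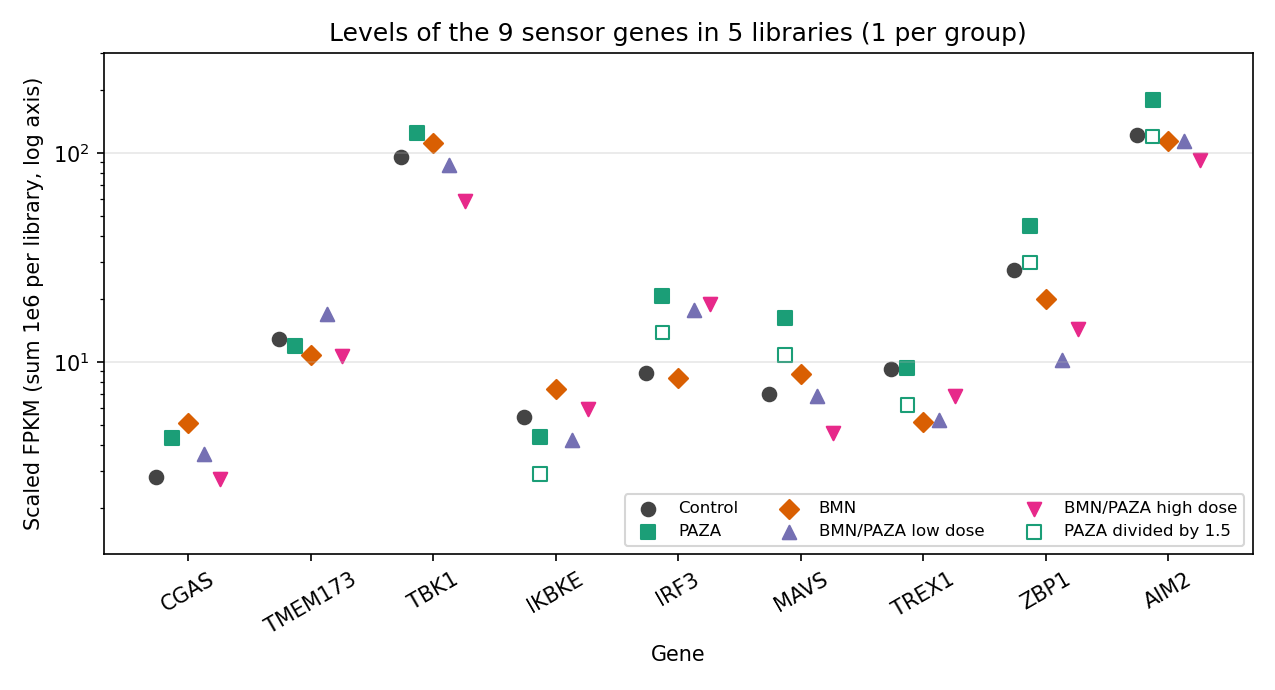
Scaled FPKM (log axis) of 9 genes in the 5 libraries, 1 symbol per library. Open squares give PAZA values of over 6 digits divided by 1.5. AIM2 and TBK1 are highest in each library and, by the filled symbols, CGAS is lowest, and IRF3 separates the 3 PAZA-containing libraries from Control and BMN.

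Among the sensors, CGAS, the DNA sensor that opens the STING route, stood at 2.80 scaled FPKM in Control, 4.34 in PAZA, 5.11 in BMN, 3.64 in the low dose and 2.74 in the high dose. The single agents were the 2 highest and the high dose lay level with Control. The log2 difference of (scaled FPKM + 1) from Control was 0.49 in PAZA, 0.68 in BMN, 0.29 in the low dose and -0.02 in the high dose. CGAS is 1 of the 2 members whose values were the same in all tables after the constants.

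ZBP1, a sensor of Z-form nucleic acids that can start necroptosis, stood at 27.6 scaled FPKM in Control, 44.7 in PAZA, 20.0 in BMN, 10.2 in the low dose and 14.3 in the high dose. The 3 BMN-containing libraries were lower than Control and PAZA. Its log2 difference from Control was 0.68 in PAZA, -0.45 in BMN, -1.35 in the low dose and -0.90 in the high dose. The divided PAZA level was 29.8 scaled FPKM, with a log2 difference of 0.11. With the low dose value of the table shared with BMN, the log2 difference between low dose and Control was 0.34, the opposite direction. With that of the table shared with PAZA it was -0.83, lower but not past 2-fold.

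AIM2, the DNA sensor that assembles an inflammasome, stood at 121.8 scaled FPKM in Control, 179.2 in PAZA, 113.5 in BMN, 113.7 in the low dose and 91.9 in the high dose. PAZA was the highest, but the divided PAZA level was 119.5, below Control. Its log2 difference was 0.55 in PAZA (-0.03 after division), -0.10 in BMN, -0.10 in the low dose and -0.40 in the high dose. The PAZA difference was -0.16 with the value of the table shared with the low dose. The low dose difference turned to 0.68 with the value of the table with BMN and to 0.60 with that of the table with PAZA. AIM2 was exchanged in the table of PAZA and the low dose. There -0.16 repeats the low dose value from elsewhere and 0.60 the PAZA value.

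Among the adaptors, TMEM173, which encodes STING, stood at 12.8 scaled FPKM in Control, 12.0 in PAZA, 10.8 in BMN, 16.9 in the low dose and 10.7 in the high dose. The low dose was the highest and the other 4 libraries lay within 10.7 to 12.8. The log2 difference from Control was -0.09 in PAZA, -0.23 in BMN, 0.37 in the low dose and -0.24 in the high dose, and no table changed these values by more than 0.5% beyond its constant.

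MAVS stood at 7.02 scaled FPKM in Control, 16.2 in PAZA, 8.78 in BMN, 6.89 in the low dose and 4.57 in the high dose. PAZA was the highest and the high dose the lowest. The log2 difference from Control was 1.10 in PAZA, 0.29 in BMN, -0.02 in the low dose and -0.53 in the high dose. After division by 1.5 the PAZA level was 10.8 scaled FPKM and the log2 difference 0.55. With the PAZA value of the table shared with the low dose it was -0.08. The low dose difference from Control was 0.68 with the value of the table with BMN and 1.14, past 2-fold, with that of the table with PAZA. As MAVS was exchanged there, 1.14 repeats the PAZA value from elsewhere and -0.08 the low dose value.

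Among the kinases, TBK1, which phosphorylates IRF3, stood at 95.4 scaled FPKM in Control, 124.9 in PAZA, 111.5 in BMN, 87.1 in the low dose and 58.6 in the high dose. Both single agents were above Control and both combinations below. Its log2 difference from Control was 0.39 in PAZA, 0.22 in BMN, -0.13 in the low dose and -0.69 in the high dose. If the PAZA value were divided by 1.5 it would be 83.2 scaled FPKM, below Control, and with the PAZA value of the table shared with the low dose the difference was -0.19. The low dose difference turned to 0.65, the opposite direction, with the value of the table with BMN. It was 0.43 with that of the table with PAZA. TBK1 was exchanged there, so 0.43 repeats the PAZA value from elsewhere and -0.19 the low dose value.

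IKBKE, the second kinase of this pair, is typically inducible. It stood at 5.46 scaled FPKM in Control, 4.36 in PAZA, 7.45 in BMN, 4.22 in the low dose and 5.95 in the high dose. BMN was the highest and the low dose the lowest, except that the divided PAZA level of 2.91 lay below it. The log2 difference from Control lay between -0.31 in the low dose and 0.39 in BMN, and the divided PAZA value gave -0.73. The low dose difference turned to 0.35 with the value of the table with BMN and was -0.23 with that of the table with PAZA. As IKBKE was exchanged in the latter, -0.23 repeats the PAZA value from elsewhere.

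IRF3, the transcription factor that these kinases activate, stood at 8.82 scaled FPKM in Control, 20.7 in PAZA, 8.35 in BMN, 17.8 in the low dose and 18.8 in the high dose. The 3 libraries with PAZA were higher than both libraries without it and did not overlap them. The log2 difference from Control was 1.15 in PAZA, -0.07 in BMN, 0.94 in the low dose and 1.01 in the high dose. Relative to the median of all genes, which was -0.16 in the high dose, the last was 1.17. The divided PAZA level of 13.8 scaled FPKM was still above Control and BMN, with a log2 difference of 0.60, and the PAZA value of the table shared with the low dose gave 0.88. With the low dose values of the other tables, the log2 difference from Control was 1.69 (table with BMN) and 1.19 (table with PAZA). IRF3 was exchanged in the table of PAZA and the low dose, so 0.88 repeats the low dose value from elsewhere. The difference of 1.19 repeats the PAZA value.

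IRF3 was the only 1 of 9 members that was higher in all 3 PAZA-containing libraries than in Control and BMN, also after the division and after scaling by median ratios. Of all 13979 genes, 7.72% did the same, and 15.7% under scaling by median ratios. No member was lower in all 3, which 26.5% of genes were, and 15.6% under scaling by median ratios. For the 3 BMN-containing libraries against Control and PAZA, 0 members were higher in all 3 (7.33% of genes) and TREX1, ZBP1 and AIM2 were lower in all 3 (6.2% of genes). With the divided PAZA values TREX1 no longer was, while ZBP1 and AIM2 were. With the low dose from the table with BMN only TREX1 was lower in all 3 and IKBKE was higher in all 3, and with the low dose from the table with PAZA only ZBP1 was lower, whereas IRF3 stayed higher in the PAZA-containing libraries in both cases. In the latter table the low dose values of the 6 exchanged members, IRF3 among them, repeat PAZA values. That case is therefore no separate check of the low dose.

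TREX1, the exonuclease that degrades cytosolic DNA and so restrains cGAS, stood at 9.21 scaled FPKM in Control, 9.31 in PAZA, 5.16 in BMN, 5.29 in the low dose and 6.88 in the high dose. As deposited beside each other, Control and PAZA were level, and the BMN-containing libraries were lower. The log2 difference from Control was 0.01 in PAZA (-0.50 after division), -0.73 in BMN, -0.70 in the low dose and -0.37 in the high dose. With the PAZA value of the table shared with the low dose the PAZA difference was -0.75. The low dose difference was -0.02 with the value of the table with BMN and 0.06 with that of the table with PAZA. As TREX1 was exchanged in the latter, 0.06 repeats the PAZA value from elsewhere and -0.75 the low dose value.

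IFNB1 was at 0.369 FPKM in BMN and listed at 0 in the low dose, in the table of those 2 libraries. It was not analysed here in Control, PAZA or the high dose. As a value of 0 without counts can mean too few reads, no fold was formed.

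**Figure D3:**
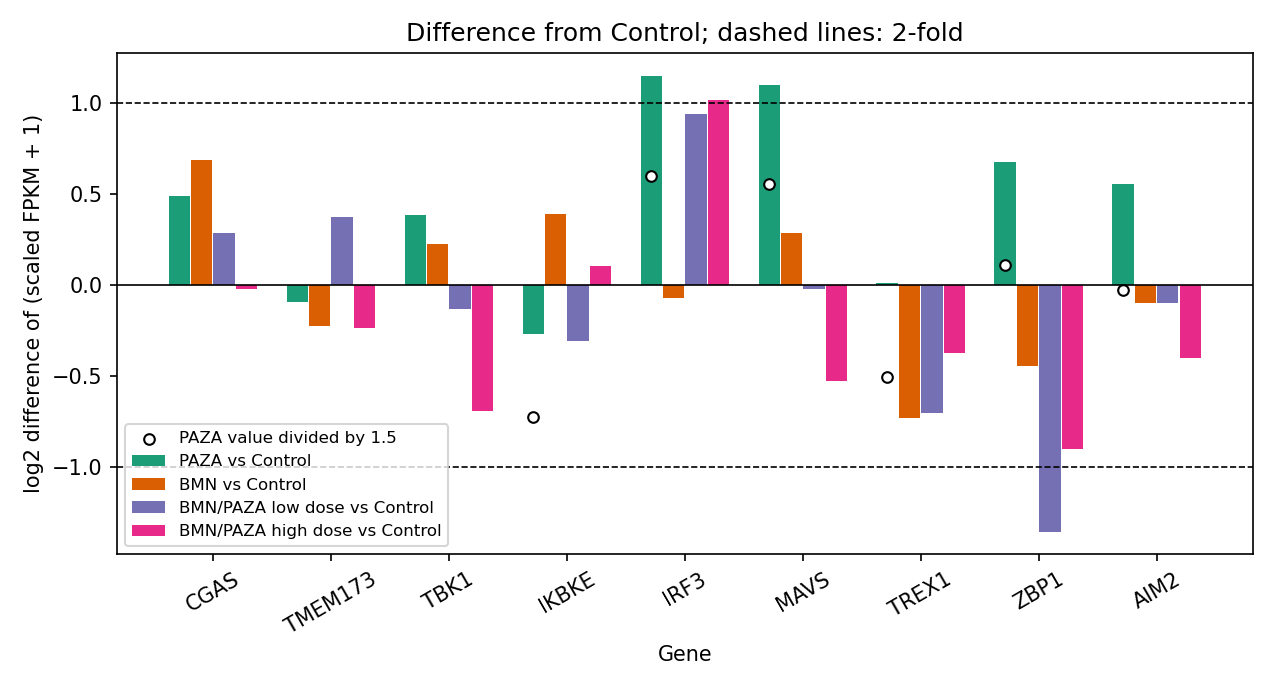
Difference of each member from Control on the log2(scaled FPKM + 1) scale, 1 bar per library, with dashed lines at 2-fold. Circles give the PAZA difference with the PAZA value divided by 1.5. IRF3 stands near or past the upper line in the 3 PAZA-containing libraries and ZBP1 past the lower line in the low dose.

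Members past 2-fold were counted against the share of all 13979 genes past 2-fold in the same comparison. The 4 comparisons with Control share that library, so they are not independent of each other. For PAZA against Control, 2 of 9 members (IRF3 and MAVS) were past 2-fold higher, against 3.47% of all genes, and 0 were past it lower, against 3.53%. After the division by 1.5, 0 members were past 2-fold. Counted by sign, 7 of 9 members were above Control, with a median log2 difference of 0.49 against -0.07 for all genes, and after the division 5 of 9 were above, with a median of 0.11. With PAZA from the table shared with the low dose, 3 of 9 were above, with a median of -0.09, but for the 6 exchanged members this uses the low dose value.

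For BMN against Control, 0 members were past 2-fold in either direction, against 4.57% of all genes higher and 2.21% lower. CGAS, at 0.68, and TREX1, at -0.73, had the largest differences. For the low dose against Control, 0 members were higher (3.61% of all genes) and ZBP1 was lower (3.5%). With the low dose from the table with BMN, IRF3 alone was past 2-fold, and with that from the table with PAZA, IRF3 and MAVS, in each case higher and without ZBP1. IRF3 and MAVS were exchanged in the latter, so that result repeats their PAZA values. IRF3, at a 2.02-fold ratio of the scaled FPKM but a log2 difference of 0.94 with the pseudocount of 1, lay just inside the threshold. For the high dose against Control, IRF3 was higher (3.13% of all genes) and 0 members were lower (4.84%).

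The low dose was also set against the single agents and the high dose. Against BMN, IRF3 was past 2-fold higher (3.2% of all genes), with a log2 difference of 1.01, or 1.14 relative to the median of all genes of -0.13, and 0 members were lower (5.82%). This difference was 1.76 and 1.26 with the low dose values of the tables with BMN and with PAZA, where the latter repeats the PAZA value from elsewhere. TMEM173 was 0.60 higher and ZBP1 0.91 lower in the low dose on the log2 scale, and with the value of the table with BMN the ZBP1 difference was 0.78, the opposite direction. Counted by sign, 4 of 9 members were above BMN, with a median log2 difference of -0.31. With the low dose from the table with BMN, 7 of 9 were above, with a median of 0.58. Against PAZA, 0 members were higher (2.43% of all genes), and MAVS and ZBP1 were lower (2.76%), with log2 differences of -1.12 and -2.03. With the divided PAZA values these were -0.58 and -1.46, so that ZBP1 alone stayed past 2-fold. They were -0.42 and -0.34, neither past 2-fold, with the low dose from the table with BMN. They were 0.04 and -1.51 with the low dose from the table with PAZA, and as deposited in the table of PAZA and the low dose MAVS was past 2-fold higher, at 1.11. MAVS was exchanged in that table, so 0.04 sets the PAZA value against itself and 1.11 has the columns exchanged. Against the high dose, 0 members were higher (3.38% of all genes) and 0 lower (2.34%). The log2 differences ranged from -0.45 for ZBP1 to 0.61 for TMEM173, where the median of all genes was 0.13. With the low dose from the table with BMN, TBK1, MAVS, ZBP1 and AIM2 were past 2-fold higher, ZBP1 at 1.24, and with that from the table with PAZA, TBK1, MAVS and AIM2 were. The values of the latter for TBK1, MAVS and AIM2 repeat their PAZA values from elsewhere. As deposited in the table of both doses, without scaling, all 9 members were past 2-fold higher in the low dose, in a column whose sum was 1.92e+06 against 588276 FPKM for the high dose. The share of all genes past 2-fold without scaling was not computed, so this count cannot be read as a result about the members.

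The wider pathway was described with 8 lists of 115 genes by role, of which 109 had a value in all 5 libraries. For PAZA against Control, 2 of 109 were past 2-fold higher and 9 lower, against 3.47% and 3.53% of all genes, with a median log2 difference of -0.13 against -0.07 for all genes. For BMN the counts were 0 and 5, against 4.57% and 2.21% of all genes (median 0.05 against 0.08). For the low dose they were 0 and 10, against 3.61% and 3.5% (median -0.18 against -0.03). For the high dose they were 0 and 13, against 3.13% and 4.84% (median -0.27 against -0.16). Among the 4 comparisons with Control, only PAZA held a pathway gene past 2-fold higher, and with the division 1 of those 2 remained.

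Among the RNA sensors, which signal through MAVS or act against viral RNA, 3 of 13 were past 2-fold lower in PAZA, against 3.53% of all genes, and none higher, with a median log2 difference of -0.73. None was past 2-fold in BMN (4.57% of all genes higher, 2.21% lower), 1 was lower in the low dose (3.5%) and 2 were lower in the high dose (4.84%). Those lower in PAZA were OAS3, OASL2 and DDX60, the last at 2.13 scaled FPKM in PAZA and 6.11 in Control. DDX58, which encodes RIG-I, stood at 43.9 scaled FPKM in Control and 59.6 in PAZA (39.8 after division), and IFIH1, which encodes MDA5, at 29.6 and 15.6. Among the other DNA sensors, 0 of 17 were past 2-fold in PAZA (3.47% of all genes higher, 3.53% lower) or BMN (4.57% and 2.21%). In the low dose 2 were lower (IFI203 and IFI207, against 3.5% of all genes) and in the high dose 1 (IFI205, against 4.84%). IFI204, a mouse relative of human IFI16, stood at 180.0 scaled FPKM in Control, 112.1 in PAZA, 136.6 in BMN, 105.9 in the low dose and 107.3 in the high dose, lower than Control in all 4.

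In the kinase and transcription factor arm of 19 genes, IRF1, an interferon-induced factor, stood at 197.9 scaled FPKM in Control and between 79.1 and 94.6 in the 4 treated libraries, past 2-fold lower in each. TBKBP1, which binds TBK1, stood at 21.8 scaled FPKM in Control and 7.99 in PAZA, past 2-fold lower there and in both combinations.

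Among nucleases and other brakes on the route, 1 of 12 was past 2-fold in any comparison with Control. This was SAMHD1, which limits the pool of nucleotides, at 134.6 scaled FPKM in Control and 55.2 in the low dose, where 3.5% of all genes were past 2-fold lower. Of the cGAMP carriers and channels, LRRC8C, a channel subunit, stood at 25.8 scaled FPKM in Control, 11.5 in the low dose and 11.8 in the high dose, past 2-fold lower in both. Of the 20 adaptors and STING regulators, TRIM56 was past 2-fold lower in PAZA (3.53% of all genes), and TICAM1 and TRIM25 in the high dose (4.84%), TICAM1 with 0.727 scaled FPKM against 3.31 in Control. In the inflammasome and necroptosis arm, the partner kinase of ZBP1, RIPK3, stood at 5.85 scaled FPKM in Control, 11.5 in PAZA (7.66 after division), 2.05 in BMN, 4.11 in the low dose and 7.91 in the high dose, and was past 2-fold lower in BMN.

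Of the output cytokines and induced genes, 13 of 15 had values in all libraries. CXCL9, a chemokine that draws T cells, stood at 80.5 scaled FPKM in Control, 36.8 in PAZA, 17.6 in BMN, 10.5 in the low dose and 12.9 in the high dose, past 2-fold lower in all 4. CXCL10, a relative that IRF3 can induce, stood at 28.3, 34.3, 22.9, 15.8 and 20.7 scaled FPKM in the same order and was past 2-fold in none of the 4. CCL5, another chemokine gene that IRF3 can induce, stood at 4.74 scaled FPKM in Control, 12.1 in PAZA, 1.69 in BMN, 2.84 in the low dose and 1.37 in the high dose. Its PAZA value was among the 27 above, and after division was 8.08, with a log2 difference of 0.66 in place of 1.19. It was past 2-fold lower in BMN, at -1.09, and in the high dose, at -1.28, and its difference in the low dose was -0.58.

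ISG15, an interferon-induced ubiquitin-like protein, stood at 16.7, 13.8, 22.0, 12.1 and 17.4 scaled FPKM in Control, PAZA, BMN, low dose and high dose, past 2-fold in none. IFIT1, an interferon-induced binder of foreign RNA, stood at 32.8, 17.5, 25.4, 19.2 and 18.7 scaled FPKM in the same order, lower than Control in all 4 and past 2-fold in none. IL6, an inflammatory cytokine, was past 2-fold higher in PAZA, at 3.25 scaled FPKM against 0.522 in Control. IL15, a growth factor for lymphocytes, was past 2-fold lower in BMN, at 2.77 against 9.17 scaled FPKM. Of the 13 output genes with values, 0 were past 2-fold higher than Control in the low dose (3.61% of all genes) or the high dose (3.13%).

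**Figure D4:**
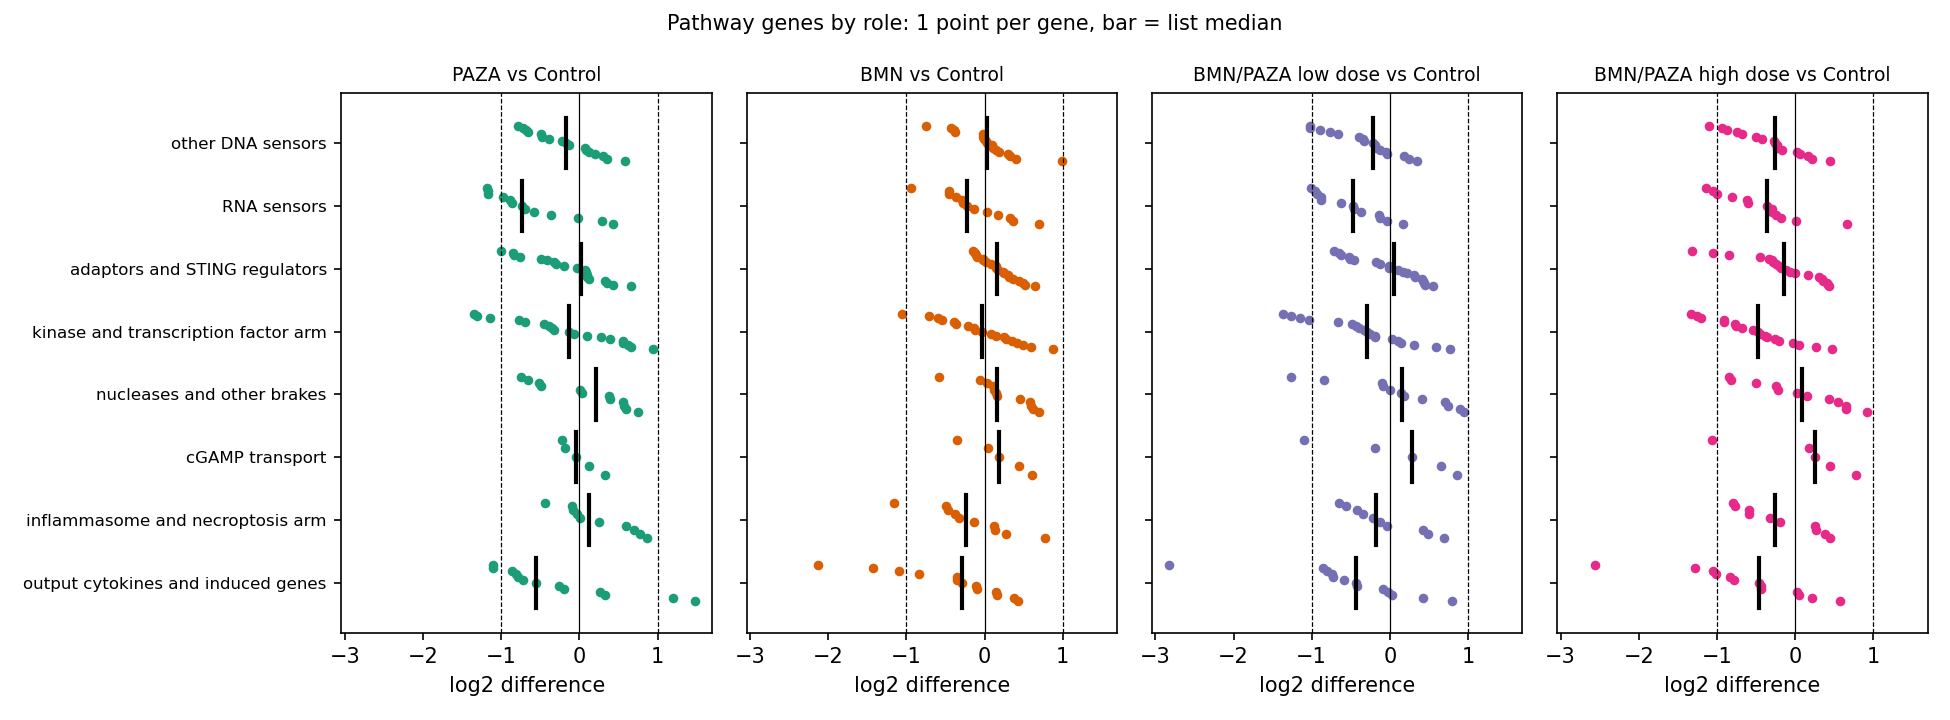
Log2 difference of (scaled FPKM + 1) from Control for 109 pathway genes in 8 lists, 1 point per gene and 1 panel per treated library. Black bars are list medians and dashed lines mark 2-fold. Most points lie within 2-fold, and CXCL9 is the point farthest to the left in the BMN, low dose and high dose panels.

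The members' 4 differences from Control were compared with those of 114 pathway genes and other members by their root mean square distance on the log2 scale. IKBKE lay nearest to ISG15 (0.0693) and XRCC6 (0.0760), and TMEM173 nearest to GSDMD (0.0853). TBK1 lay nearest to DDX58 (0.147) and RELA (0.161), CGAS to IRF5 (0.169) and MYD88 (0.223), and AIM2 to POLR3F (0.210) and RELA (0.224). TREX1 lay nearest to CASP1 (0.241) and CXCL10 (0.259), and MAVS to IKBKG (0.280) and IL1B (0.295). IRF3 and ZBP1 had no close neighbour. The nearest to IRF3 were IL6 (0.377) and DNASE2A (0.437) and the nearest to ZBP1 were IRF7 (0.418) and CXCL10 (0.420). The distances rest on 4 differences that share the Control library, and DDX58, RELA, POLR3F, CASP1 and IRF7 were among the pathway genes whose PAZA value had over 6 digits. The deposited PAZA values of IRF7 and CHUK, both among these, were identical, at 57.4 scaled FPKM.

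The levels of markers of other cell types differed between libraries as well. The summed level of 6 skeletal muscle markers was 8.39 scaled FPKM in Control, 54.8 in PAZA, 171 in BMN, 11.3 in the low dose and 191 in the high dose. Of the epidermal markers, the keratin KRT14 stood at 14.1, 1.54, 62.9, 0.511 and 1.59 scaled FPKM in the same order, and KRT5, KRT10 and KRT1 were likewise highest in BMN and lowest in the low dose, where KRT5 and KRT1 were listed at 0. The summed level of these 4 and SBSN was 139, 75.0, 253, 61.8 and 82.3, of which SBSN made up 72.0, 67.0, 52.4, 59.985 and 69.9. PTPRC, the leukocyte marker CD45, stood at 36.6 scaled FPKM in Control, 40.6 in PAZA, 46.0 in BMN, 27.0 in the low dose and 27.7 in the high dose, and the 6 leukocyte markers summed to 162, 209, 221, 154 and 144. The sum of the 6 monocyte and neutrophil markers was 114 in Control and 280 in the high dose, of which S100A8 made up 35.8 and 131.7 and S100A9 30.8 and 93.2 scaled FPKM. That of 7 lymphocyte markers was 7.97 in Control and 2.76 in the high dose, where CD3E was listed at 0. The fibroblast sum was 313 in Control, 534 in PAZA, 817 in BMN, 318 in the low dose and 350 in the high dose. The leukocyte, macrophage and fibroblast sums and CGAS were all highest in BMN, then PAZA. The part of these markers in the levels of the members was not tested.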

How the data were processed

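RNA was measured in 5 libraries, 1 per group. The authors deposited 5 tables of 2 libraries each, with no unit named, and their form is that of FPKM. Per the labels the tools were HISAT2 and StringTie and the build GRCm38, versions not given. No counts were available, so depth is unknown and no counting interval was formed. Where a symbol was repeated, the row with the highest mean was used. Levels were taken from 3 tables, each column scaled to a sum of 1e6 over 13979 shared symbols. Differences are of log2(scaled FPKM + 1), and past 2-fold means an absolute difference of at least 1. With 1 library per group no test was run. Values in 2 tables were called off when over 0.5% from the median ratio, over genes of at least 0.01 FPKM in both tables. Gene positions are from GENCODE and promoters from RefSeq, whose table held no ZBP1; the window of TMEM173 was not used here. Members and lists were chosen with earlier results of these data known. Genes named were the members, up to 3 pathway genes (of at least 1 scaled FPKM) with the highest and lowest difference past 2-fold from Control, the 2 nearest to each member, and IFNB1, CXCL10, CCL5, ISG15 and IFIT1. Some genes that this rule gave are not reported here. Other genes were named after their values were seen. Alternatives covered the pseudocount, a minimum value, scaling by median ratios, the source table and the threshold. Division of PAZA values by 1.5, and the overlap of libraries under other scalings and tables, were added after seeing the data. Python 3.11.15, numpy 2.4.6, pandas 2.3.3 and matplotlib 3.10.9 were used. The comparison was tested on simulated data.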

Additional observations from a re-analysis of the deposited data

Results flagged for a closer look

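ZBP1 was 0.68 higher in PAZA than in Control and 0.91 lower (log2 difference -0.91) in the BMN/PAZA low dose than in BMN, so adding PAZA went with opposite directions without and with BMN. The difference between these effects was not tested, since each group had 1 library. With the PAZA value divided by 1.5 the first difference was 0.11, and with the low dose value of the table shared with BMN the second was 0.78, so the opposition depended on the table and column used.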

How the results depend on the processing

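No paired analysis was possible because each group has 1 library. Of 369 recomputed single-gene differences, 277 kept their direction and moved by less than 1.5-fold, 24 kept it and moved by more, and the rest changed sign, 26 by less than 1.5-fold and 42 by more. Among the 277, 63 under a minimum of 1 could not change, as every member lay above it. Another 18 with BMN from the table with the low dose could not either, as those BMN values were identical. Of the values past 2-fold, 5 reversed. For members past 2-fold, the low dose against Control gave 1 (ZBP1, lower), 2 with a pseudocount of 0.1 and 2 with scaling by median ratios (IRF3 added, higher), 2 with the low dose from the table with PAZA (IRF3 and MAVS, higher) and 1 with that from the table with BMN (IRF3, higher), the last 2 settings without ZBP1. The low dose against PAZA gave 2, but 0 with the low dose from the table with BMN, 1 with the low dose from the table with PAZA, 1 with PAZA from the table with the low dose, and 1 with PAZA values divided by 1.5, with TBK1 included or not. The low dose against the high dose gave 0, but 4 with the low dose from the table with BMN and 3 with it from the table with PAZA. It gave 9 as deposited in 1 table, without scaling and with the larger sum in the low dose column. PAZA against Control gave 2, but 0 with PAZA from the table with the low dose and 0 after the division, with TBK1 included or not. Counts and single-gene differences that use the table of PAZA and the low dose carry the exchange of 6 members. A 1.5-fold threshold gave 3 for PAZA, 2 for BMN, 3 for the low dose and 3 for the high dose against Control, and for the low dose 4 against BMN, 4 against PAZA and 1 against the high dose. Shares of all genes were not computed at 1.5-fold or for 2-fold counts with the other source tables. Those counts therefore cannot be set against all genes. Reversed differences were ZBP1 in the low dose against Control (0.34 with the low dose from the table with BMN) and differences of MAVS, which was exchanged in the table of PAZA and the low dose. MAVS in PAZA against Control was -0.077 with PAZA from that table, which repeats the low dose value. MAVS in the low dose against PAZA was 0.044 with the low dose from that table, which sets the PAZA value against itself. It was 0.053 with PAZA from that table, which sets the low dose value against itself. It was 1.11 as deposited there, with the columns exchanged. A minimum of 1 could change no count of members, as the lowest member value was 2.74 scaled FPKM (CGAS, high dose). With it, 2.67% to 6.96% of genes were past 2-fold in a direction. The cause of these changes was not tested, beyond the source table each one names.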
